A study of Homo sapiens with 6 samples.

Results

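Apolipoproteins are the protein components of plasma lipoproteins, the particles that carry triglyceride, cholesterol and phospholipid through the blood. The 10 apolipoprotein genes described here are APOA1, APOA2, APOA4, APOB, APOC1, APOC2, APOC3, APOE, APOH and APOM. They were chosen by name from the 29908 genes of the expression table, by matching the Ensembl gene identifier of each row to its symbol in GENCODE release 29. All 10 have a row, and 8 of them averaged 0.5 FPKM or more across the 6 libraries and entered the test.

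The data are RNA sequencing of Hep3B, an established human hepatocellular carcinoma cell line, in 2 groups of 3 replicate libraries. Hep3B-Con cells received the control lentivirus, called shControl in the sample titles and an empty vector in the design text of the series. Hep3B-KD cells received a lentivirus with a short hairpin RNA against DAGLA, diacylglycerol lipase alpha, the enzyme that releases the endocannabinoid 2-arachidonoylglycerol from diacylglycerol. Both groups were infected at a multiplicity of infection of 5, selected with puromycin and grown in medium with foetal bovine serum, so each library comes from selected cells of 1 line and the knockdown rests on 1 hairpin. The comparison asks how the mRNA levels changed when DAGLA was reduced.

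Hepatocytes secrete APOB as the single structural protein of each very low density lipoprotein particle, onto which the microsomal triglyceride transfer protein loads lipid during translation. APOA1 and APOA2 are the main proteins of high density lipoprotein, and the smaller APOC proteins and APOE exchange between particles, where they control lipolysis and uptake by receptors. APOM carries sphingosine-1-phosphate on high density lipoprotein, and APOH, also called beta-2-glycoprotein I, binds anionic phospholipid. Values are FPKM, reads relative to exon length and to sequencing depth, which allow levels of different genes to be compared per length.

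The targeted gene was measured first. DAGLA was 9.42, 9.40 and 9.02 FPKM in the Hep3B-Con libraries and 4.62, 4.46 and 4.78 FPKM in the Hep3B-KD libraries, a log2 fold change of -0.99 ± 0.0441 (SE) with an adjusted p of 5.25e-06 (limma, Benjamini-Hochberg). The groups did not overlap, so the labels match the level of the targeted mRNA. The libraries held 15861039 to 17572714 reads. Across the 14221 genes tested the median log2 fold change stood at 0.11, and changes relative to this shift are given for the members where it matters. Of the hepatocyte markers ALB was at 2041.5 ± 25.9 FPKM in Hep3B-Con and 3314.7 ± 6.90 in Hep3B-KD (SD, n = 3), while HP was under 0.5 FPKM.

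In Hep3B-KD cells the mRNAs of 6 of the 8 apolipoproteins tested rose, those of APOH, APOB, APOC3, APOE, APOA1 and APOA2. APOM fell, and APOC1 did not pass the test. Among all genes tested 36.1% were higher in Hep3B-KD at an adjusted p under 0.05 and 23.8% were lower. These shares are to be read beside the counts of every gene list below. Of the 6 that rose, APOH, APOB and APOC3 were at least 2-fold higher, beside 5.89% of all genes tested that rose by this much and passed the test. The median log2 fold change of the 8 members was 0.78, beside 0.11 over all genes. In these bulk cultures, more cells that express a gene and more of its mRNA per cell cannot be told apart.

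**Figure D1:**
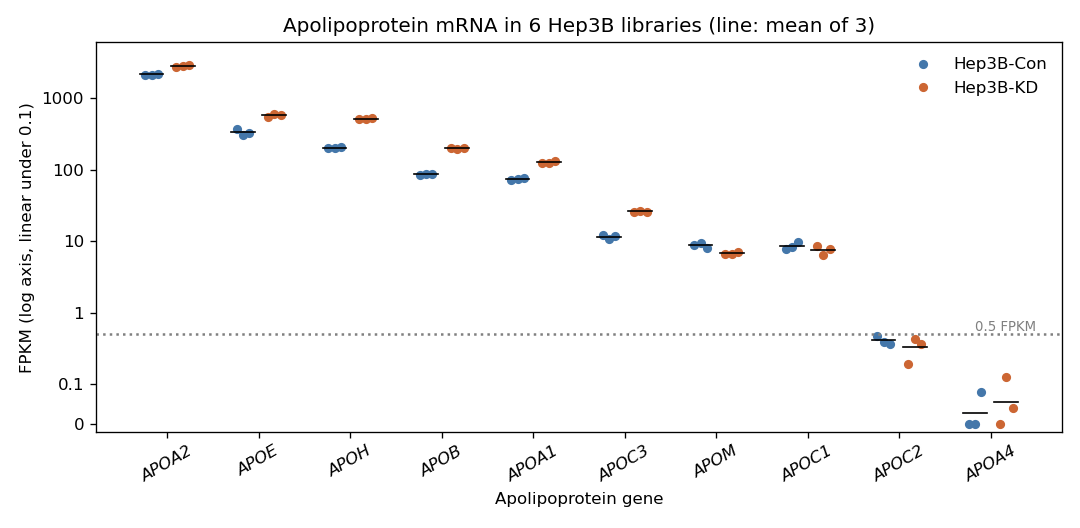
FPKM of the 10 apolipoprotein genes in each of the 3 Hep3B-Con and 3 Hep3B-KD libraries, on a log axis that is linear under 0.1, with a line at each group mean and a dotted line at the filter of 0.5 FPKM. The points of the groups are apart for APOA2, APOE, APOH, APOB, APOA1, APOC3 and APOM, and overlap for APOC1, APOC2 and APOA4. Of all genes tested 36.1% were higher and 23.8% lower at an adjusted p under 0.05. The share of all genes whose groups are apart is not given, so whether the members differ from other genes in this is not known.

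APOB, the structural protein of very low density and low density lipoprotein, lies at chr2:21001429-21044073 on the minus strand (GRCh38, GENCODE release 29). Its level was 85.3, 86.7 and 86.3 FPKM in Hep3B-Con and 202.8, 194.7 and 198.0 FPKM in Hep3B-KD. Every Hep3B-KD library was above every Hep3B-Con library, and the libraries of a group lay close together. APOB rose 2.30-fold, with a log2 fold change of 1.20 ± 0.0197 (SE) and an adjusted p of 1.25e-07 (limma, Benjamini-Hochberg). It is the longest of the 10 transcripts and took 21308 to 22348 reads in the Hep3B-Con libraries and 46376 to 48712 in the Hep3B-KD libraries, which is 28.8% ± 0.474 and 37.9% ± 0.964 (SD, n = 3) of the reads of all 10 members.

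APOB mRNA is known for an edited cytosine that turns a glutamine codon into a stop codon and so yields the short APOB48 of the intestine in place of the full-length APOB100 of the human liver. The sequence around it is shown because A1CF and RBM47, cofactors of this editing, changed in these cells, as described further on. The level of the deaminase, APOBEC1, is not known here. In the transcript with the longest coding sequence the first base of the codon is transcript position 6666, and it lies in exon 26 of 29, an exon of 7572 bases. The reference sequence at chr2:21010310-21010339 on the minus strand (GRCh38) follows, with the codon in capitals.
APOB editing site: tatatgataCAAtttgatcagtatattaaa
The values count all reads of the gene and do not tell the edited from the unedited mRNA.

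APOH had the largest log2 fold change of the 8 members tested. It measured 203.4, 201.6 and 205.7 FPKM in Hep3B-Con and 506.2, 507.2 and 522.5 FPKM in Hep3B-KD, without overlap. It rose 2.51-fold, with a log2 fold change of 1.33 ± 0.0175 (SE) and an adjusted p of 6.16e-08 (limma, Benjamini-Hochberg). The gene spans chr17:66212033-66256525 on the minus strand, and the start site listed by RefSeq lies inside this span.

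Motifs were searched on both strands of the promoter windows in the RefSeq table (GRCh38.p14), each from 250 bases before to 50 after a start, of which 9 belong to 7 of the members. CAAAGTCCA, the HNF4A motif, was in 0 of them and in 0.384% of all 35116 windows. The nuclear receptor core AGGTCA was in 1 member window, that of APOC2, beside 13.8% of all windows, and the TATA box letters TATAAA were also in 1, again that of APOC2, beside 11.5%. The APOC2 matches begin 156 and 30 bases before its start. A match or its lack describes these letters in these windows only. APOA1, APOB and APOC3 have no entry in the table.

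APOA2, a major protein of high density lipoprotein beside APOA1, had the highest level of the 10 mRNAs in both groups. It measured 2080.4, 2132.5 and 2193.1 FPKM in Hep3B-Con and 2759.8, 2806.5 and 2857.6 FPKM in Hep3B-KD. The groups did not overlap although the rise was small, with a log2 fold change of 0.40 ± 0.0224 (SE) and an adjusted p of 1.35e-05 (limma, Benjamini-Hochberg). Relative to the median of all genes the change was 0.29. With quantile normalization the log2 fold change of APOA2 was 0.11, still past the test at an adjusted p of 0.000241 (limma, Benjamini-Hochberg).

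APOA1, the main protein of high density lipoprotein and the cofactor of lecithin-cholesterol acyltransferase, stood well below APOA2. Its levels were 70.7, 74.5 and 76.0 FPKM in Hep3B-Con and 123.1, 125.5 and 131.3 FPKM in Hep3B-KD. It rose 1.72-fold, by 0.78 ± 0.0355 (SE) on the log2 scale, with an adjusted p of 5.78e-06 (limma, Benjamini-Hochberg). The antisense gene APOA1-AS overlaps it on the opposite strand over 1834 bases and was listed at 0.206 and 0.146 FPKM in the group means. The sources used here do not say whether strand was kept, and the part of the overlap in the values of APOA1 was not tested.

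APOC3, an inhibitor of lipoprotein lipase and of the uptake of triglyceride-rich particles, measured 12.2, 10.6 and 11.7 FPKM in Hep3B-Con. In Hep3B-KD it measured 25.9, 26.6 and 25.7 FPKM, and each of these was above all 3 control values. APOC3 rose 2.26-fold, with a log2 fold change of 1.18 ± 0.054 (SE) and an adjusted p of 5.87e-06 (limma, Benjamini-Hochberg).

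APOE, the ligand through which remnant particles bind LRP1 and other receptors, had the second highest level. It was at 364.9, 307.9 and 330.1 FPKM in Hep3B-Con and at 543.7, 596.2 and 579.1 FPKM in Hep3B-KD. The groups were apart, with a wider spread between replicates than for APOB or APOH. The log2 fold change was 0.78 ± 0.0644 (SE), with an adjusted p of 6.99e-05 (limma, Benjamini-Hochberg).

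APOM was the single member that fell. It measured 8.88, 9.53 and 8.0 FPKM in Hep3B-Con and 6.57, 6.64 and 6.97 FPKM in Hep3B-KD. The highest Hep3B-KD library stayed under the lowest Hep3B-Con library. Its log2 fold change was -0.38 ± 0.0683 (SE), with an adjusted p of 0.00283 (limma, Benjamini-Hochberg), from 173 to 275 reads per library. Its annotated span shares 290 bases with that of BAG6 on the opposite strand, a gene at 119.0 and 119.5 FPKM in the group means. Any reads in the shared bases could not be told apart without strand. Whether these bases are exonic in both genes was not examined.

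APOC1, which inhibits the binding of APOE-bearing particles to receptors, did not pass the test. Its levels of 7.72, 8.32 and 9.76 FPKM in Hep3B-Con and 8.50, 6.42 and 7.69 FPKM in Hep3B-KD overlapped. The log2 fold change was -0.19 ± 0.124 (SE), with an adjusted p of 0.226 (limma, Benjamini-Hochberg). It rested on 127 to 200 reads per library.

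The other members were near or at the limit of detection. APOC2, the activator of lipoprotein lipase, had 11, 9 and 8 reads in Hep3B-Con and 4, 9 and 8 reads in Hep3B-KD, and its mean levels were 0.411 ± 0.0574 and 0.328 ± 0.122 FPKM (SD, n = 3). It lies wholly within the annotated readthrough gene APOC4-APOC2, which has no row of its own. How reads shared by these genes were counted is not known. With no filter on low values its log2 fold change was -0.30, with an adjusted p of 0.536 (limma, Benjamini-Hochberg). APOA4, made mainly by the intestine, had 0, 0 and 2 reads in Hep3B-Con and 0, 3 and 1 reads in Hep3B-KD. No fold is given for APOA4, since every library held 3 or fewer of its reads, too few to compare the groups.

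**Figure D2:**
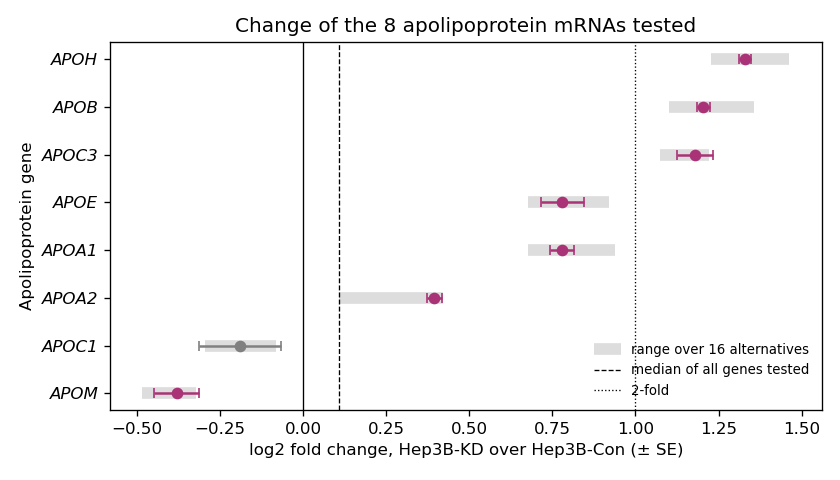
Log2 fold change of the 8 apolipoprotein mRNAs tested, Hep3B-KD over Hep3B-Con, with the standard error as a bar and the range over 16 alternative analyses as a grey band. Coloured points passed the test, the grey point of APOC1 did not, the dashed line marks the median of all genes at 0.11 and the dotted line a 2-fold rise. The bands of APOH, APOB and APOC3 lie wholly above the dotted line, and that of APOA2 reaches down to 0.11.

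The order of the levels was almost the same in both groups. From the highest it ran APOA2, APOE, APOH, APOB, APOA1 and APOC3, with no overlap between neighbours over the 3 libraries of either group. APOM and APOC1 followed with overlapping ranges and traded places in the order of means, and APOC2 and APOA4 came last. Against all 29908 genes APOB moved from rank 386 by mean FPKM in Hep3B-Con to rank 99 in Hep3B-KD. APOH moved from rank 114 to 34, and APOE from 54 to 31. APOA1 went from rank 494 to 193 and APOC3 from 3995 to 1709, whereas APOM went from 4890 to 6055. APOA2 was at rank 10 and then 9, with little room above it.

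Taken as a sum, the 10 genes held 1.07% ± 0.0187 of all FPKM of a Hep3B-Con library and 1.62% ± 0.0254 of a Hep3B-KD library (SD, n = 3). The Hep3B-Con libraries ranged from 1.05% to 1.09% and the Hep3B-KD libraries from 1.59% to 1.64%, without overlap. APOA2 made up 74.6% ± 1.03 of this apolipoprotein FPKM in Hep3B-Con and 65.9% ± 0.188 in Hep3B-KD. Without APOA2 the other 9 genes held 0.271% ± 0.00923 and 0.550% ± 0.00925. Counted in reads, where long transcripts weigh more, the 10 genes took 0.444% ± 0.00541 and 0.776% ± 0.00672 of the libraries.

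**Figure D3:**
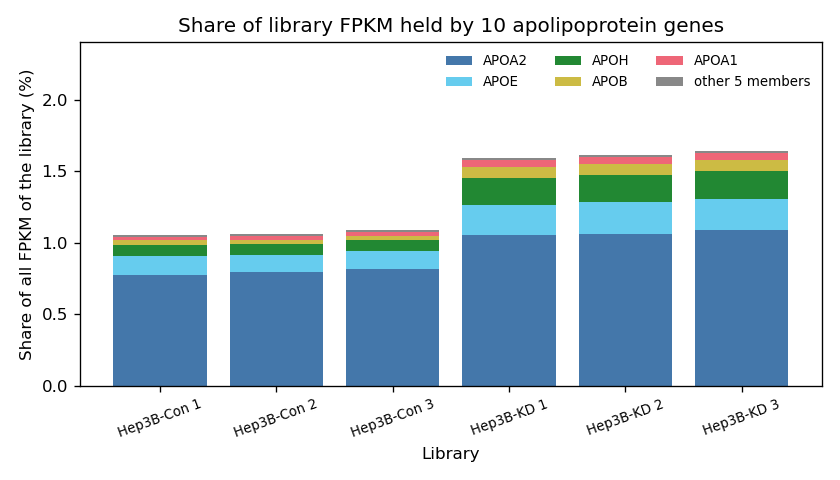
Share of all FPKM of a library held by the 10 apolipoprotein genes, as stacked bars for the 6 libraries, with the 5 members of highest level named. The bars reach 1.05% to 1.09% in Hep3B-Con and 1.59% to 1.64% in Hep3B-KD, and APOA2 is the largest segment in every library.

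Members of these genes lie in 2 clusters. APOA1, APOC3 and APOA4 are neighbours on chromosome 11, with APOA1 at chr11:116835751-116837950 on the minus strand, APOC3 at chr11:116829706-116833072 on the plus strand and APOA4 at chr11:116820700-116823306 on the minus strand. APOE, APOC1 and APOC2 are neighbours on the plus strand of chromosome 19, at chr19:44905754-44909393, chr19:44914247-44919349 and chr19:44945982-44949565. Whether partners of a cluster moved by unlike amounts was tested through their ratios in exact permutation tests, which cannot go below p = 0.1 with 3 libraries against 3. The log2 ratio of APOA1 to APOC3 changed from 2.67 ± 0.139 to 2.28 ± 0.0644 (SD, n = 3), a difference of -0.40 ± 0.0882 (SE) in a two-sided exact permutation test with p = 0.1, and 0.133 after adjustment over 4 pairs.

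The log2 ratio of APOE to APOC1 changed from 5.27 ± 0.248 to 6.24 ± 0.266 (SD, n = 3), a difference of 0.97 ± 0.210 (SE) with the same exact permutation p of 0.1 and adjusted p of 0.133. APOE to APOC2 differed by 1.08 ± 0.228 (SE), with a two-sided exact permutation p of 0.1, adjusted to 0.133. APOC1 to APOC2 differed by 0.10 ± 0.411 (SE), with an exact permutation p of 0.9 before and after adjustment. The last 2 pairs rest on the few reads of APOC2. Pairs with APOA4 were not computed.

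Of 10 tested neighbours outside the APOA1 cluster, 2 were higher, 2 lower and 6 were not called, with a median log2 fold change of 0.10. Among all genes tested 36.1% were higher and 23.8% lower. Those called were BACE1 at 0.59, PAFAH1B2 at 0.08, ZPR1 at -0.20 and TAGLN at -0.49. The call of PAFAH1B2 was lost in 8 alternatives, 5 of them without 1 library (any but Hep3B-KD replicate 2), and centring on the median turned its log2 fold change to -0.02. The call of ZPR1 was lost in 6, among them without Hep3B-Con replicate 1 or 2 and without Hep3B-KD replicate 1 or 3, with adjusted p up to 0.0945 (limma, Benjamini-Hochberg), while centring moved it to -0.31. BACE1 was at 0.36 with quantile normalization. Of 9 tested neighbours outside the APOE cluster, 4 were higher, 1 lower and 4 were not called, with a median of 0.13. The same shares of all genes, 36.1% higher and 23.8% lower, stand beside these counts. Those higher were BCAM, CBLC, RELB and NECTIN2, and the call of NECTIN2, at a log2 fold change of 0.26, was lost in 8 alternatives, among them without Hep3B-Con replicate 2 or 3 and without Hep3B-KD replicate 2 or 3. With centring on the median NECTIN2 was at 0.16. BCAM, the Lutheran blood group adhesion molecule, rose from 33.7 ± 0.851 to 85.5 ± 2.55 FPKM (SD, n = 3), a log2 fold change of 1.34 beside 0.78 for APOE. TOMM40, which encodes a pore of the mitochondrial outer membrane, fell by 0.46 on the log2 scale.

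**Figure D4:**
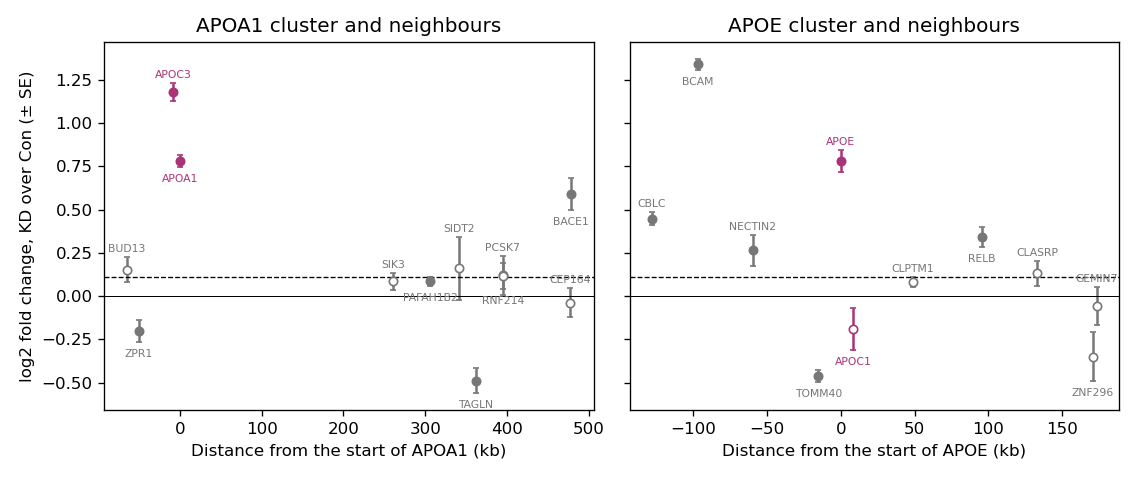
Log2 fold change with its standard error against the distance along the chromosome from the start of APOA1 (left) and of APOE (right), in kb, for the tested members in colour and their tested neighbours in grey. Filled points passed the test, open points did not, and the dashed line is the median of all genes. APOC3 and APOA1 stand above all 10 neighbours of their cluster, whereas BCAM stands above APOE.

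Genes whose pattern over the 6 libraries was most like that of a member were found by the distance between centred log2 values. With 2 groups a small distance mostly means a similar log2 fold change. For APOH, at 1.33, the nearest genes were at 1.33, 1.34 and 1.30. Shared regulation was not tested. For APOB the nearest were ONECUT1, C5 and AMBP, at distances of 0.0492 to 0.0613. For APOH they were ARNTL2, BCAM and ZMYM2, and for APOC3 PLAG1, RICTOR and DZIP1L. APOA1 was nearest to ZNF720, OGDHL and OIP5-AS1, and APOE to LEPR, CRY2 and STARD10. The counts of genes within a distance of 0.1 were 137 for APOA2, 23 for APOA1, 19 for APOB, 9 for APOH, 6 for APOC3, 2 for APOE and 1 each for APOM and APOC1. APOA2 was nearest to CCNC, ZFYVE26 and CCDC138. APOM was nearest to LITAF, EEF2KMT and EML2, and APOC1 to AC021087.2, MXD3 and CTSO.

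Other genes of the apolipoprotein name were mostly not expressed. Of 13 with a row, 5 were tested, 3 of them rose and none was lower at this threshold. Among all genes tested 36.1% were higher and 23.8% lower. CLU, also known as apolipoprotein J, an extracellular chaperone, rose from 53.1 ± 0.795 to 141.7 ± 1.60 FPKM (SD, n = 3), a log2 fold change of 1.41 beside 1.33 for APOH. APOL2 and APOOL rose by 0.69 and 0.52 on the log2 scale, and APOOL by 0.34 with quantile normalization. APOO and APOL6 were not called, with log2 fold changes of 0.20 and -0.25.

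The genes that assemble and export APOB particles moved both ways, beside 36.1% of all genes tested that were higher and 23.8% lower. Of 20 tested, 11 rose, 8 fell and 1 was not called, with a median log2 fold change of 0.29. MTTP, the lipid transfer protein without which APOB is degraded, rose from 5.98 ± 0.00972 to 15.8 ± 0.298 FPKM (SD, n = 3), a log2 fold change of 1.39 beside 1.20 for APOB. P4HB, the protein disulfide isomerase that forms the other subunit of the same complex and the most abundant gene of the list, fell by 0.36 from 209.7 to 163.9 FPKM. The acyl-CoA synthetases ACSL1 and ACSL3 fell by 1.62 and 0.83 on the log2 scale, and SOAT2, which esterifies cholesterol for particle assembly, rose by 0.86 from 0.864 to 1.65 FPKM. The call of SOAT2 was lost without Hep3B-KD replicate 3, at an adjusted p of 0.0552, and with quantile normalization, at 0.0717 (limma, Benjamini-Hochberg). With that normalization P4HB fell by 0.19, and with a pseudocount of 1 SOAT2 rose by 0.50.

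Of the genes for APOB editing, APOBEC1, the deaminase, has no row in the table. A1CF, its RNA-binding partner at the site shown above, rose from 8.11 ± 0.272 to 17.1 ± 0.259 FPKM (SD, n = 3), or by 1.07 on the log2 scale. RBM47, a second cofactor, fell from 9.78 ± 0.456 to 4.55 ± 0.191 FPKM, or by 1.09 on the log2 scale. The cofactors thus moved in opposite directions by similar amounts.

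Genes that load, remodel or take up high density lipoprotein also moved both ways, beside 36.1% higher and 23.8% lower over all genes tested. Of 7 tested, 3 were higher, 2 lower and 2 not called, with a median of 0.17. Of the 3, BMP1, a protease of the APOA1 precursor, rested on an adjusted p of 0.0300 (limma, Benjamini-Hochberg) and was not called in 7 alternatives, among them without any 1 of the Hep3B-Con libraries or without Hep3B-KD replicate 2. ABCA1, which passes cellular lipid to APOA1, rose from 9.40 ± 0.388 to 15.6 ± 0.239 FPKM (SD, n = 3). SCARB1, the receptor that takes cholesteryl ester from the particle, fell from 33.0 ± 1.29 to 20.8 ± 1.05 FPKM. LIPC, hepatic lipase, rose by 0.51 and PON3 fell by 0.50 on the log2 scale.

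In the lipase system, on which APOC2 and APOC3 act, 2 of 5 tested genes rose, 2 fell and 1 was not called. Over all genes tested 36.1% were higher and 23.8% lower. ANGPTL8, a secreted regulator of lipoprotein lipase, fell from 46.6 ± 3.05 to 6.91 ± 0.300 FPKM (SD, n = 3), a log2 fold change of -2.73 and the largest of the lists described here. PCSK6 rose by 0.27, or 0.17 with centring on the median, and FURIN fell by 0.82 from 204.5 to 116.0 FPKM.

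Of 11 tested receptors of apolipoproteins and their regulators, 7 rose, 2 fell and 2 were not called, with a median of 0.41. SORT1, a sorting receptor that binds APOB in the secretory pathway, rose from 24.4 ± 0.655 to 44.6 ± 0.587 FPKM (SD, n = 3). AMN, the partner of cubilin, rose by 1.07, MYLIP, a ligase that marks lipoprotein receptors for degradation, by 0.69, and LSR, a receptor for triglyceride-rich particles with the highest level of this list, by 0.41. LRP8, a receptor of APOE, fell by 0.79 from 1.36 to 0.742 FPKM. With a pseudocount of 1 LRP8 fell by 0.44 and MYLIP rose by 0.46, and with quantile normalization MYLIP rose by 0.44.

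**Figure D5:**
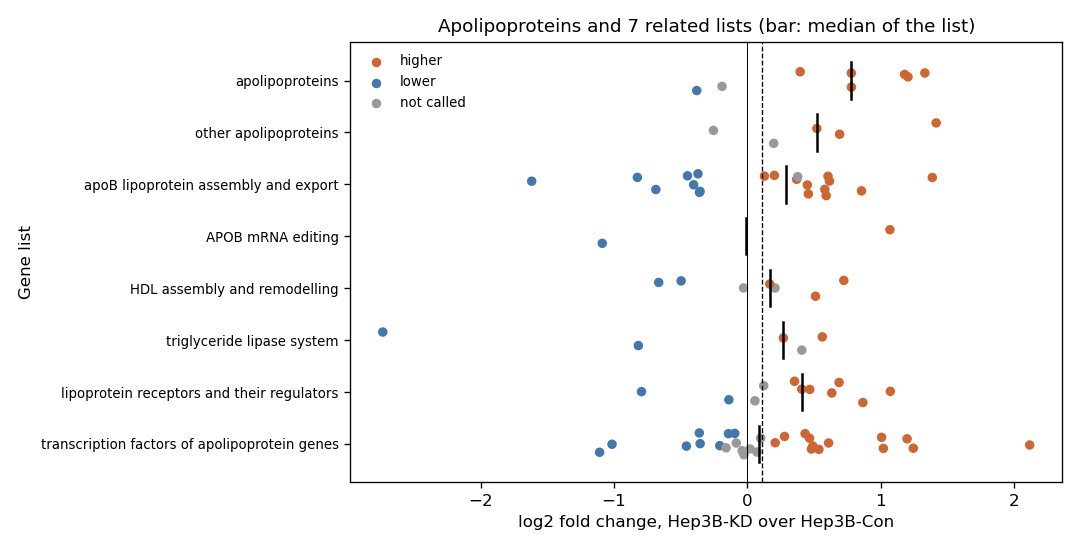
Log2 fold change, Hep3B-KD over Hep3B-Con, of each tested gene of the apolipoproteins and of 7 related lists, coloured by whether it was higher, lower or not called, with a bar at the median of each list and a dashed line at the median of all genes. The apolipoproteins have the highest median, 0.78, and ANGPTL8 at -2.73 and CREB3L3 at 2.12 are the outermost points.

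Transcription factors known to act on apolipoprotein genes had a median near that of all genes, 0.09. Of 28 tested, 13 rose, 8 fell and 7 were not called, beside 36.1% higher and 23.8% lower over all genes tested. CREB3L3, a liver activator of APOC2 and APOA4, rose 4.33-fold from 1.02 ± 0.0692 to 4.76 ± 0.285 FPKM (SD, n = 3). NR1H4, the bile acid receptor FXR, rose by 1.24 and ONECUT1, hepatocyte nuclear factor 6, by 1.20. HNF4A, an activator of most of these genes and the factor with the highest level in Hep3B-Con, though not in Hep3B-KD, fell from 56.2 ± 0.262 to 43.9 ± 0.809 FPKM, and CEBPA fell by 1.11.

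Other hepatocyte markers, most of them secreted proteins like the apolipoproteins, moved both ways. Of 11 of them tested, 6 rose and 5 fell, with a median of 0.13, beside 36.1% higher and 23.8% lower over all genes tested. AMBP rose by 1.19, TTR by 0.96 and ALB by 0.70 on the log2 scale, whereas the fibrinogen chains FGA and FGB fell by 1.23 and 0.96. Of 8 enterocyte markers with a row, 7 were under 1 FPKM in every library, and VIL1 rose from 85.8 to 125.9 FPKM. All 7 endothelial markers with a row were under 1 FPKM in every library, and 2 of 5 leukocyte markers were tested with neither called. The stellate and fibroblast markers LUM, COL1A1 and PDGFRB fell by 0.86, 1.20 and 0.32 on the log2 scale, with COL1A1 falling by 0.46 with a pseudocount of 1 and PDGFRB by 0.55 with quantile normalization, and the 7 markers of this list summed to 9.28 to 10.2 FPKM in Hep3B-Con and 5.48 to 5.96 FPKM in Hep3B-KD. The part of these levels in the apolipoprotein values was not tested.

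The hairpin was compared with the members because short RNAs can bind other transcripts through bases 2 to 8 of the guide strand. The target in DAGLA and the guide strand, written in DNA letters with bases 2 to 8 in capitals, are as follows.
Hairpin target: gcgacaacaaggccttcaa
Guide strand: tTGAAGGCcttgttgtcgc
The site that pairs with these bases, the letters GCCTTCA on the transcript strand, was in the 3' UTR of 0 of the 10 members, taking the transcript with the longest coding sequence of each. It was in the 3' UTR of 1332 of 10851 tested genes with a 3' UTR of 50 bases or more, or 12.3%. The 3' UTRs of the members were 57 to 316 bases long, and the genes of this share were not matched for length. The coding sequence of APOB, 13692 bases long, holds 2 such sites. Coding sequences of genes outside the members were not searched, and the part of such sites in the levels was not tested.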

How the data were processed

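RNA of 6 Hep3B libraries, 3 Hep3B-Con and 3 Hep3B-KD, was sequenced on an Illumina platform from TruSeq libraries. The submitters' processing notes name Bowtie2 2.0.6, TopHat2 2.0.12 and the build GRCh37. The counting program and strand setting are not given in the sources used here. The authors deposited FPKM values in 1 table of 29908 Ensembl genes, with 0 other columns of values. Multiplied by exon length in GENCODE release 29 and by the library total, 100.0% of the values came within 0.01 of a whole read, which gave the reads per library and gene. That release is on GRCh38, and coordinates are of that build.

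Rows that averaged 0.5 FPKM or more, 14221 in number, were tested as log2(FPKM + 0.1) with limma 3.58.1 (lmFit, eBayes with trend) in R 4.3.3, with Benjamini-Hochberg adjustment over all of them. Folds are on this scale and understate the change of low genes. Genes were called at an adjusted p under 0.05. The fit was also run on simulated reads with 200 changed genes. That is fewer than the 5133 higher and 3388 lower genes called in the data, and the outcome is not reported here. No fold was given where each library held at most 3 reads of a gene, a floor that covers counting error only. Nothing in the sources says whether replicates came from separate infections, so p-values measure the spread between these libraries. No pair of libraries agreed within sampling noise.

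The members and lists were chosen with earlier results of these data known. All members and DAGLA are described. From each other list the 4 called genes with the largest change and the gene with the highest mean FPKM were named, and APOO, APOL6, NECTIN2, BMP1, SEC23A, NR0B2 and SREBF2 besides, after their values were seen. Some genes and motifs are not reported here. The 3 genes nearest to a member by Euclidean distance of centred log2 values were also named. As alternatives the filter was dropped or raised to 1 FPKM, the pseudocount was set to 1 or 0.01, and the fit was repeated with values scaled to TPM, median centring, quantile normalization, no variance trend, voom on recovered reads, the replicate block and each of the 6 libraries left out. Sequences are from RefSeq, GENCODE release 29 and the study's table of hairpins. Python 3.11.15 with pandas 2.3.3, scipy 1.17.1 and matplotlib 3.10.9 was used.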

Additional observations from a re-analysis of the deposited data

How the results depend on the processing

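All 8 members tested and DAGLA kept their direction and their side of the threshold in 16 of 16 alternatives, and the counts of 6 higher, 1 lower and 3 at least 2-fold higher members were the same in each. Log2 fold changes ranged from 1.23 to 1.46 for APOH, 1.10 to 1.36 for APOB, 1.07 to 1.22 for APOC3, 0.68 to 0.92 for APOE, 0.68 to 0.94 for APOA1, 0.11 to 0.42 for APOA2, -0.29 to -0.08 for APOC1 and -0.48 to -0.32 for APOM. The highest adjusted p of a called member was 0.0131, that of APOM with the replicate block (limma, Benjamini-Hochberg).

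The number of all genes at least 2-fold higher fell from 838 to 255 with a pseudocount of 1 and to 477 with quantile normalization, and the cause was not tested. The rise in the share of a library held by the 10 genes was 0.550 percentage points of FPKM and 0.332 percentage points in recovered reads, which weigh genes by length. Median centring took the median of all genes from 0.11 to 0.0059.

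Same-numbered libraries of the groups showed no shared deviation (correlations of -0.0656 to -0.0011, beside -0.0356 to 0.0491 for unlike numbers). Whether they were handled together cannot be told from this, and the main fit did not pair them. With the replicate block 4766 genes were higher and 3153 lower, in place of 5133 and 3388, and APOB had an adjusted p of 6.24e-05. Over all alternatives, higher and lower counts ran from 9 to 12 and 8 to 8 for APOB assembly, 2 to 4 and 2 to 2 for high density lipoprotein, 11 to 14 and 6 to 10 for transcription factors, 1 to 2 and 1 to 3 for APOA1 neighbours, and 3 to 5 and 1 to 2 for APOE neighbours. The calls of SEC23A, NR0B2 and SREBF2 within these counts were lost in 6, 4 and 6 alternatives, and SREBF2 turned to 0.02 with quantile normalization. Of the other apolipoproteins 1 was lower in 2 alternatives.

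Depth limits APOC2 and APOA4, with at most 11 and 3 reads in a library, and APOC1 and APOM, with at most 200 and 275. The values are of 1 hairpin in 1 cell line and of mRNA, not of secreted protein.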
